A study of Mus musculus with 6 samples.

Results

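Peroxisomes are single-membrane organelles that shorten very long and branched fatty acids, start the synthesis of ether lipids, oxidise D-amino acids and hydroxy acids, and break down the hydrogen peroxide these oxidases release. In the kidney they are abundant in the proximal tubule, the part of the nephron that reabsorbs most of the filtrate and burns fatty acids to do so. Peroxins, the products of the Pex genes, import the enzymes from the cytosol already folded and place the membrane proteins, and PPARA, a nuclear receptor activated by fatty acids, is known to induce many of the enzymes.

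The genes described here are 43 protein-coding genes of peroxisome assembly and peroxisomal metabolism, of 55401 genes in the deposited tables: the 17 whose symbol is Pex followed by a number, and 26 named enzymes and membrane proteins. All 43 carry the gene ontology term for the peroxisome in the deposited annotation, as do 97 other protein-coding genes. The RNA came from whole kidney of mice in 2 groups of 3, WT/Sed and Cdo1KKO/Sed, in a study of diabetic nephropathy. All mice of both groups were made diabetic with streptozotocin, which destroys insulin-producing cells, so there was no group without diabetes. Cdo1KKO/Sed mice carry the genotype given as Cdo1KKO, in a study of Cdo1 (cysteine dioxygenase, which oxidises cysteine) in the renal tubule. The labels do not spell out KKO or Sed, and do not give the Cre or promoter used, the age, the sex or any batch. Each library is labelled as a separate biological replicate, with no word on litters or pooling. The comparison asks which genes differ in the diabetic kidney with this genotype.

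Total counts ran from 28145261 to 43872779 per library, over 21993 to 24418 genes with at least 1 count. Cdo1 itself stood at 180.5 to 191 CPM (read counts relative to the scaled library size) in WT/Sed and 103 to 118 CPM in Cdo1KKO/Sed, 59.8% of the WT/Sed mean. The groups did not overlap (log2 fold change -0.74 ± 0.06 SE, adjusted p = 4.64e-06, edgeR's quasi-likelihood test). With 3 libraries against 3, an exact two-sided permutation test of a single gene cannot give less than p = 0.1, the value found for Cdo1. Defining markers of kidney tubule were present: Slc34a1, the phosphate transporter of the proximal tubule, stood at 3586 to 4788 CPM in WT/Sed, and Umod of the thick ascending limb at 1173 to 1607 CPM.

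Transcripts of peroxisomal genes were lower in Cdo1KKO/Sed than in WT/Sed kidney, with a larger median difference for the enzymes than for the import machinery. Of 42 members that passed the filter on low counts, 28 fell and 0 rose at an adjusted p under 0.05 (edgeR's quasi-likelihood test, adjusted over the 17194 genes tested); of all genes tested 18.5% fell and 18.9% rose. At an unadjusted p under 0.05 edgeR placed 1 member higher (Paox), and DESeq2 and limma-voom called 0 higher after adjustment. The median log2 fold change of the members was -0.39, against 0.01 over all genes tested, and single members ranged from -1.31 (Hao2) to 0.31 (Paox, not past the threshold). All 3 Cdo1KKO/Sed libraries lay below all 3 WT/Sed libraries in 31 members, against 24.5% of all genes. They lay above in 1 member, Paox, against 25.7% of all genes, and overlapped in 10. In whole kidney, fewer cells of a type and less RNA per cell cannot be told apart.

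The members summed to 9835, 9409 and 10121 CPM in WT/Sed and to 6942, 7138 and 6850 CPM in Cdo1KKO/Sed, in the order of replicates 1, 2 and 3, which is kept for all values below. The Cdo1KKO/Sed mean was 71.3% of that of WT/Sed, against 89.0% for the sum of all genes tested. The 17 Pex genes summed to 711 to 719 CPM in WT/Sed and 614 to 647 CPM in Cdo1KKO/Sed. That is 87.4% of the WT/Sed mean, beside the 89.0% that the scaling sets for all genes tested. The other 26 members summed to 8698 to 9402 CPM and 6234 to 6491 CPM, 70.0%. Of the Pex genes 8 of 17 fell, with a median log2 fold change of -0.15 (0.10 on TPM, a scale described below), and of the other members 20 of 25 tested, with a median of -0.51 (-0.24 on TPM). Over all genes tested 18.5% fell, with a median of 0.01 (0.19 on TPM). The difference between these groups of genes was not tested.

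**Figure D1:**
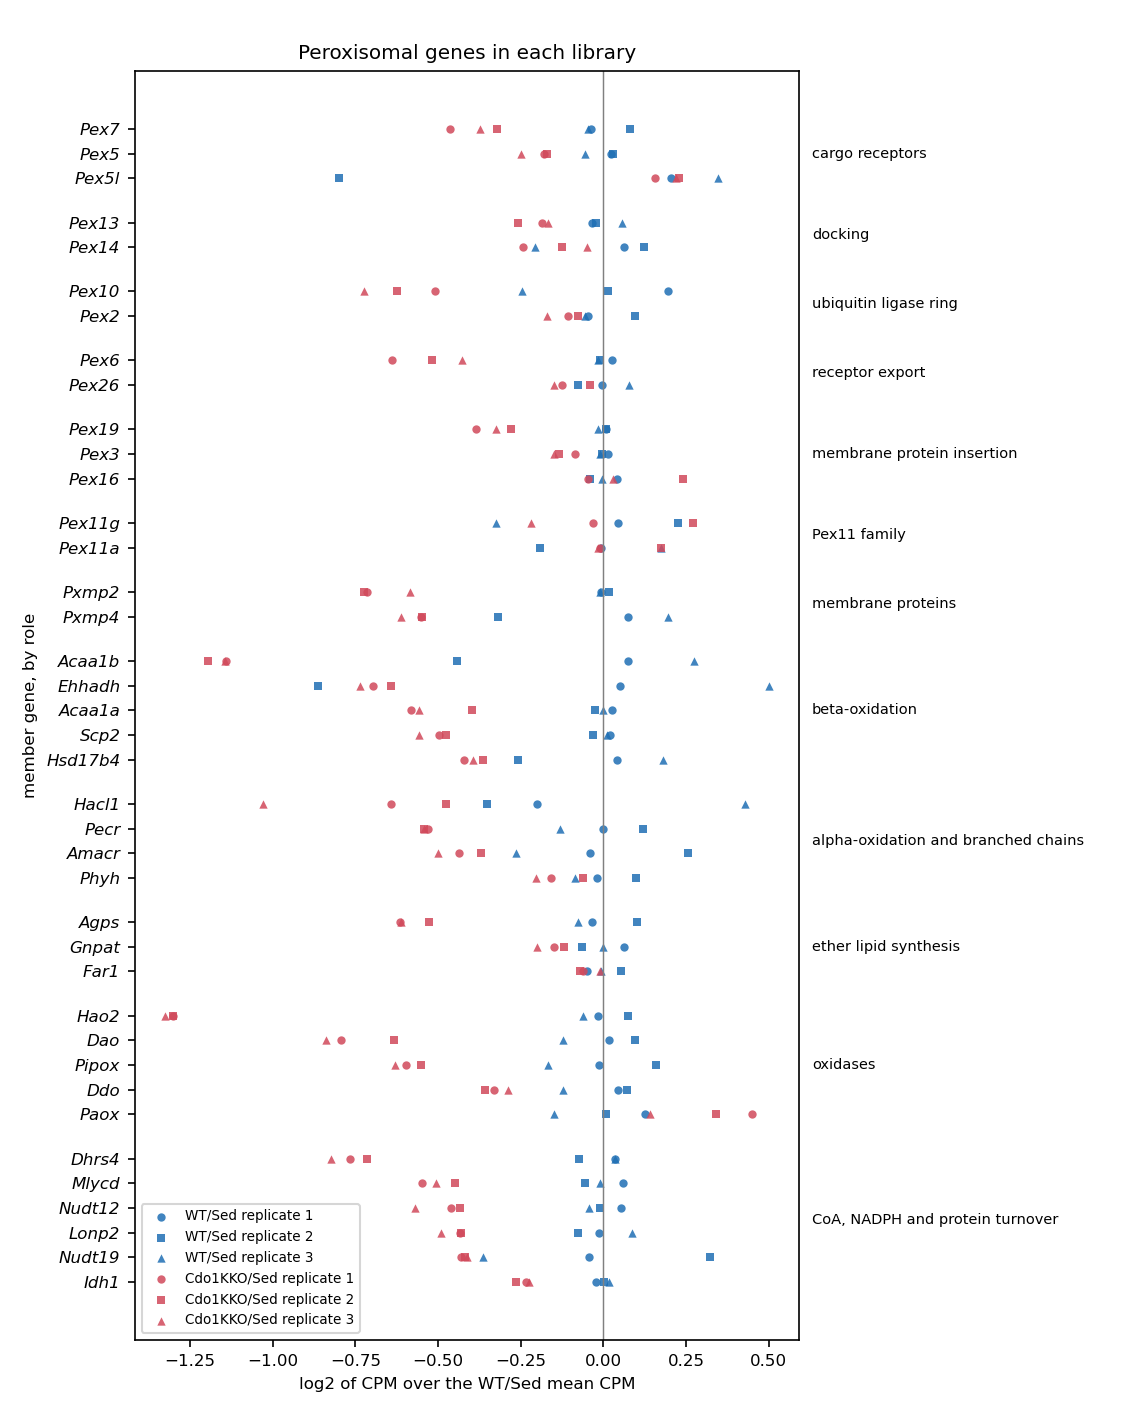
Each point is 1 library's level of 1 gene as the log2 of its CPM over the WT/Sed mean CPM, for 39 members grouped by role; blue marks WT/Sed, red Cdo1KKO/Sed, and circle, square and triangle mark replicates 1, 2 and 3. In 29 of them the red points all lie left of the blue ones; Hao2 and Acaa1b lie farthest left, and Pex11a, Pex11g, Pex16 and Far1 overlap.

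The directions depend on the scale on which libraries are compared. The all-gene median of the log2 fold change was 0.01 with the main scaling (TMM), 0.18 with library size only and 0.19 with the deposited TPM (counts per gene length, relative to the library, as log2(TPM + 1)), so a fold change here is relative to that median gene. The members' median lay 0.40, 0.40 and 0.32 below it on these 3 scales, and 37 of 42 members lay below it on each. Rescaling a library moves all its genes by about the same amount. This likeness across scales was therefore fixed in advance and is no separate support. Counted from 0 instead, 18 members fell and 2 rose (Paox and Pex16) with library size only, and 15 fell and 4 rose (also Pex11a and Far1) with TPM. Over all genes, 3250 rose and 3185 fell with the main scaling, 5513 and 1685 with library size only, and 6784 and 1246 with TPM. On TPM the log2 fold change of Idh1, Pex5, Pex13 and Gnpat, all called lower with the main scaling, was between 0.01 and 0.10, on the other side of 0 but below the median gene. The calls that ended with library size only included those of Idh1, Pex5, Pex13, Gnpat, Ddo, Hacl1, Amacr and Hsd17b4, and on TPM also those of Pex7, Pex19 and Pxmp4 (adjusted p = 0.142, 0.199 and 0.0865). With the filter on low counts dropped, so that TPM was compared over all genes above 0, the members' median of -0.12 lay 0.21 below an all-gene median of 0.09, and 30 of 43 members lay below it. Shares of all genes called were 9.80% lower and 32.1% higher with library size only, and 7.25% lower and 39.5% higher with TPM.

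**Figure D2:**
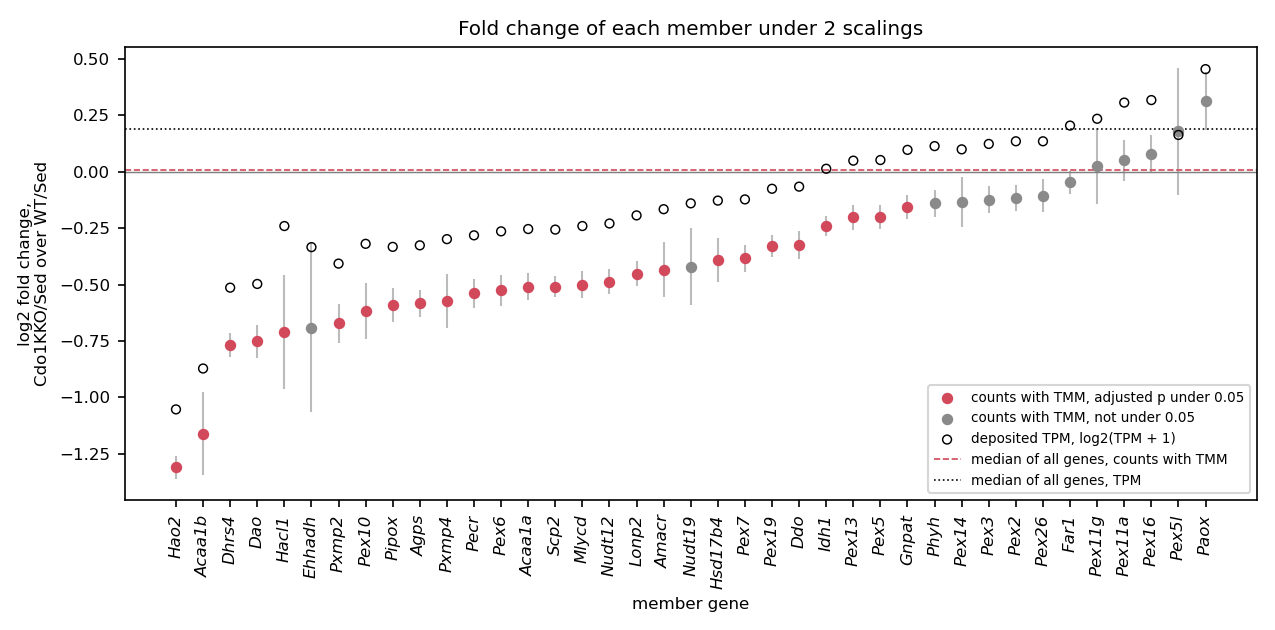
Log2 fold changes of 39 members, Cdo1KKO/Sed over WT/Sed: filled points with SE bars are from counts with TMM (red, adjusted p under 0.05; grey, not), open points from log2(TPM + 1), and the lines mark the median of all genes on each scale, 0.01 and 0.19. Every open point except that of Pex5l lies above its filled point, and open points cross 0 for Idh1, Pex13, Pex5 and Gnpat among the red genes and for Far1, Phyh, Pex2, Pex3, Pex14 and Pex26 among the grey ones.

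Fatty acids are shortened inside the peroxisome by beta-oxidation. Here 4 of the 5 members of this group fell (median log2 fold change -0.51, and -0.26 on TPM), against 18.5% of all genes tested. Acaa1b, one of a pair of thiolases that release acetyl-CoA in the last step, stood at 250.2, 175 and 287 CPM in WT/Sed and 108, 104 and 107 CPM in Cdo1KKO/Sed (-1.16 ± 0.18 SE, adjusted p = 0.00471). Its paralog Acaa1a stood at 106, 103 and 104 CPM against 69.8, 79.2 and 70.9 CPM (-0.51 ± 0.06, adjusted p = 5.48e-05). Both thiolase genes were lower in every Cdo1KKO/Sed library than in any WT/Sed library. They lie on chromosome 9 of GRCm38, Acaa1b at 119148023 to 119157093 and Acaa1a at 119339676 to 119350299, and how reads were split between such similar copies is not known. Scp2, which encodes a sterol carrier and thiolase for branched chains, stood at 1132, 1093 and 1125 CPM against 792, 804 and 758 CPM (-0.51 ± 0.05, adjusted p = 1.01e-05), a tight and fully separated pair of groups. Hsd17b4 encodes the bifunctional enzyme that handles branched and very long chains, and stood at 301, 245 and 332 CPM against 218, 227 and 223 CPM (-0.39 ± 0.10, adjusted p = 0.0124). The call for Hsd17b4 was lost without Cdo1KKO/Sed replicate 1 (adjusted p = 0.0504).

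Ehhadh, the other bifunctional enzyme and a known PPARA target, had the highest level per length of all members in WT/Sed, 1164 ± 517 TPM (SD, n = 3). Relative to its mean it was also the most uneven in WT/Sed of the 42 tested members. It stood at 1576, 838 and 2153 CPM in WT/Sed and at 939, 976 and 914 CPM in Cdo1KKO/Sed. WT/Sed replicate 2 lay below all Cdo1KKO/Sed libraries and the other WT/Sed libraries lay above them, so the groups overlapped. The difference was not past the threshold (-0.69 ± 0.37 SE, adjusted p = 0.231). Without WT/Sed replicate 2 Ehhadh was called lower (-0.98, adjusted p = 0.00638), and without WT/Sed replicate 3 its log2 fold change was -0.36. The gene lies on chromosome 16, from 21761287 to 21787807.

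Oxidases that pass electrons straight to oxygen had the lowest sum relative to WT/Sed of the enzyme groups, 56.2%. In this group 4 of 5 tested members fell (median -0.59, and -0.33 on TPM), against 18.5% of all genes tested. Hao2, an oxidase of medium and long hydroxy acids, had the lowest fold change of all members: 433, 461 and 419 CPM in WT/Sed and 177, 177 and 175 CPM in Cdo1KKO/Sed (-1.31 ± 0.05 SE, adjusted p = 1.96e-08). It lies on chromosome 3, from 98874521 to 98893239. The Cdo1KKO/Sed libraries held 40.3% of the WT/Sed mean, with little spread inside either group. Dao, which oxidises neutral D-amino acids, stood at 358, 378 and 325 CPM against 204, 228 and 198 CPM (-0.75 ± 0.07, adjusted p = 1.32e-05). Pipox, which oxidises pipecolic acid and sarcosine, stood at 378, 426 and 339 CPM against 252, 260.1 and 246 CPM (-0.59 ± 0.08, adjusted p = 0.000121). Ddo, which oxidises D-aspartate, stood at 65.6, 66.8 and 58.4 CPM against 50.6, 49.6 and 52.1 CPM (-0.32 ± 0.06, adjusted p = 0.00216). On the other scales Ddo was not called, at -0.16 with library size only (adjusted p = 0.0795) and -0.07 on TPM (adjusted p = 0.434). In these 4 oxidases the groups did not overlap.

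Paox, the oxidase of acetylated polyamines, was the exception: 7.81, 7.20 and 6.45 CPM in WT/Sed and 9.77, 9.05 and 7.89 CPM in Cdo1KKO/Sed (0.31 ± 0.13 SE, adjusted p = 0.0777). Its groups did not overlap, and the lowest Cdo1KKO/Sed library lay just above the highest WT/Sed library. Paox shares 2.89% of its exon bases with Echs1 on the opposite strand, which held 42424 counts against 1802 for Paox, and the strand setting of the counting is not known. Uox, urate oxidase, an enzyme known from mouse liver, had 4 counts over the WT/Sed libraries and 12 over the Cdo1KKO/Sed libraries, and did not pass the filter.

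Branched fatty acids such as phytanic acid are first shortened by alpha-oxidation, in which Phyh and Hacl1 act. With Pecr and Amacr they make up the group of alpha-oxidation and branched chains. In this group 3 of 4 members fell (median -0.49, and -0.20 on TPM), against 18.5% of all genes tested. Phyh, which hydroxylates phytanoyl-CoA in the first step, was at 799 ± 41.5 TPM in WT/Sed (SD, n = 3), below Ehhadh and Nudt19 among the members, and is the member of this group that was not called. It stood at 658, 714 and 628 CPM against 597, 638 and 579 CPM, and the highest Cdo1KKO/Sed library lay inside the WT/Sed range (-0.14 ± 0.06 SE, adjusted p = 0.0916, and adjusted p = 0.00984 without WT/Sed replicate 3). On TPM its log2 fold change was 0.11. Pecr, an enoyl-CoA reductase, stood at 462, 502 and 421 CPM against 319.6, 317 and 317 CPM (-0.54 ± 0.06, adjusted p = 6.18e-05), with no overlap.

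Amacr, the racemase that turns branched chains and bile acid intermediates into the form that can be oxidised, stood at 203, 249 and 174 CPM against 154, 161 and 148 CPM (-0.43 ± 0.12 SE, adjusted p = 0.0263). That call ended when WT/Sed replicate 1 or any of the Cdo1KKO/Sed libraries was left out (adjusted p = 0.0545 to 0.0843), while the fold change stayed below 0. Hacl1, the lyase that follows Phyh, was scarce at 2.83, 2.55 and 4.38 CPM against 2.08, 2.34 and 1.59 CPM (-0.71 ± 0.25, adjusted p = 0.0464). Its call was lost in 5 of 6 fits that leave out 1 library, with the exception of WT/Sed replicate 2 (adjusted p = 0.0665 to 0.175). Exon bases of Hacl1 overlap Gm49387 on the same strand (31.1%) and Btd on the other strand (2.18%); Btd held 14886 counts and Hacl1 592, and how reads in the shared bases were counted is not known.

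Ether lipid synthesis starts with Gnpat and Agps inside the organelle and with Far1 on its surface, and the step enzymes differed in size. Agps, which places the ether bond, stood at 453, 497 and 439.6 CPM against 302, 321 and 303 CPM (-0.58 ± 0.06 SE, adjusted p = 1.88e-05). Gnpat, which acylates dihydroxyacetone phosphate, stood at 95.1, 86.9 and 90.9 CPM against 82.1, 83.8 and 79.2 CPM (-0.16 ± 0.05, adjusted p = 0.0416). That small difference was no longer past the threshold when WT/Sed replicate 1, or any of the Cdo1KKO/Sed libraries, was left out (adjusted p = 0.0707 to 0.172), and Gnpat was at 0.10 on TPM. Far1, which supplies the fatty alcohol, stood at 301, 324 and 309.8 CPM against 298, 297 and 309.5 CPM, with overlapping groups (-0.05 ± 0.05, adjusted p = 0.506, and 0.20 on TPM).

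Genes of coenzyme A, NADPH and protein turnover had 5 of 6 members that fell (median -0.47, and -0.21 on TPM), against 18.5% of all genes tested. Dhrs4, an NADPH-dependent carbonyl reductase, stood at 284, 264 and 284 CPM against 163, 169 and 156 CPM (-0.77 ± 0.05 SE, adjusted p = 1.48e-06). Mlycd, which removes malonyl-CoA, stood at 56.0, 51.7 and 53.3 CPM against 36.7, 39.4 and 37.8 CPM (-0.50 ± 0.06, adjusted p = 7.12e-05). Both separated the groups fully. Nudt12, a hydrolase of NADH and NADPH, and Lonp2, a protease of the matrix, stood at 71.4% and 73.1% of their WT/Sed means (-0.49 and -0.45, adjusted p = 5.34e-05 and 8.76e-05). Idh1, which makes NADPH from isocitrate in cytosol and peroxisome, stood at 624, 634 and 641 CPM against 539, 527 and 542 CPM (-0.24 ± 0.05, adjusted p = 0.00166). The Idh1 groups did not overlap on CPM, but on TPM the log2 fold change was 0.01, below the 0.19 of the median gene.

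Nudt19, a hydrolase of coenzyme A known from kidney peroxisomes, was the second most abundant member per length in WT/Sed at 803 ± 181 TPM (SD, n = 3). It stood at 922, 1189.6 and 739 CPM in WT/Sed and 705, 711 and 714 CPM in Cdo1KKO/Sed. All WT/Sed libraries lay above all Cdo1KKO/Sed libraries, but the spread of WT/Sed was wide and the difference was not past the threshold (-0.42 ± 0.17 SE, adjusted p = 0.113). It was called lower when WT/Sed replicate 2 (-0.23, adjusted p = 0.0464) or WT/Sed replicate 3 (-0.58, adjusted p = 0.00297) was left out.

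The import machinery had smaller differences at the median. The receptors that carry enzymes to the membrane had 2 of 3 members that fell (median -0.20, but 0.05 on TPM), against 18.5% of all genes tested. Pex7, the receptor for enzymes with an N-terminal signal, among them Phyh and Agps, stood at 72.4, 78.6 and 72.0 CPM against 53.9, 59.5 and 57.4 CPM (-0.38 ± 0.06 SE, adjusted p = 0.0005). Pex5, the receptor for the more common C-terminal signal, stood at 80.4, 80.7 and 76.2 CPM against 69.8, 70.3 and 66.5 CPM (-0.20 ± 0.05, adjusted p = 0.012). Both were lower in every Cdo1KKO/Sed library; the Pex5 call ended when WT/Sed replicate 1 (adjusted p = 0.0603) or Cdo1KKO/Sed replicate 3 (adjusted p = 0.0596) was left out, and its log2 fold change on TPM was 0.05. Pex5l, a relative of Pex5 best known from brain, was scarce, at 2.03, 1.01 and 2.24 CPM against 1.96, 2.06 and 2.05 CPM, with overlapping groups (0.18 ± 0.28, adjusted p = 0.661).

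At the membrane, Pex13 and Pex14 form the docking complex. Pex13 stood at 56.5, 57.0 and 60.1 CPM against 50.9, 48.4 and 51.6 CPM (-0.20 ± 0.06 SE, adjusted p = 0.0158), was lost without Cdo1KKO/Sed replicate 1 or 2 (adjusted p = 0.0538 and 0.0728), and was at 0.05 on TPM. Pex14 overlapped between groups (-0.13 ± 0.11, adjusted p = 0.385), and 28.3% of its exon bases are shared with an antisense gene that held 315 counts. Pex2 and Pex10 belong to the ring-finger ligase that marks the receptor with ubiquitin. Pex10 stood at 16.9, 14.9 and 12.4 CPM against 10.4, 9.56 and 8.92 CPM, the lowest fold change of any Pex gene (-0.62 ± 0.12, adjusted p = 0.00244). Pex2 was not called (-0.12 ± 0.06, adjusted p = 0.152), although its groups did not overlap, and was at 0.13 on TPM.

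Pex6, an ATPase held to the membrane by Pex26, helps to pull the spent receptor out. It stood at 43.1, 42.1 and 41.9 CPM against 27.2, 29.6 and 31.5 CPM (-0.52 ± 0.07 SE, adjusted p = 0.000132). The groups did not overlap, and the Cdo1KKO/Sed mean was 69.4% of that of WT/Sed. Pex26 overlapped (-0.11 ± 0.07, adjusted p = 0.3, and 0.13 on TPM).

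Pex3, Pex16 and Pex19 insert membrane proteins, and loss of any of them is known to leave cells without peroxisomes. Pex19, the soluble chaperone, stood at 102, 102 and 101 CPM against 77.9, 83.9 and 81.4 CPM (-0.33 ± 0.05 SE, adjusted p = 0.000406); on TPM it was at -0.08 and not called (adjusted p = 0.199). Its anchor Pex3 stood at 35.8, 35.4 and 35.2 CPM against 33.5, 32.3 and 32.0 CPM, separated but not past the threshold (-0.12 ± 0.06, adjusted p = 0.129, and 0.12 on TPM). Pex16 overlapped (0.08 ± 0.09, adjusted p = 0.507). The Pex11 family, which elongates peroxisomes before they divide, includes Pex11a (0.05 ± 0.09) and Pex11g (0.03 ± 0.17), whose groups overlapped (adjusted p = 0.707 and 0.921). Pex11a, the PPARA-inducible form and the most abundant Pex gene per length in WT/Sed at 73.4 ± 10.2 TPM (SD, n = 3), stood at 102, 90.0 and 116 CPM against 102, 116 and 102 CPM. Of the exon bases of Pex11g 41.1% are shared with a neighbouring gene model that held 4 counts.

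Of the integral membrane proteins, Pxmp2, a channel for small solutes, stood at 17.0, 17.2 and 16.9 CPM against 10.4, 10.3 and 11.4 CPM (-0.67 ± 0.09 SE, adjusted p = 0.000128). Pxmp4 stood at 196, 149 and 213 CPM against 127, 127 and 122 CPM (-0.57 ± 0.12, adjusted p = 0.00746). Neither overlapped, and this pair had the lowest median of the role groups, -0.62.

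The members spanned a wide range of levels per length in WT/Sed. After Ehhadh, Nudt19 and Phyh came Scp2 at 729 ± 21.8 TPM, Pecr at 691 ± 51.4 TPM and Idh1 at 519 ± 11.4 TPM (SD, n = 3 each). The libraries of Ehhadh and Nudt19 overlapped with those of the next 3, and Scp2 with Pecr, so these neighbours do not differ beyond their spread. Phyh lay above Scp2 in every WT/Sed library, and Idh1 below Pecr. The lowest were Hacl1 at 1.5 ± 0.473 TPM, Pex5l at 0.453 ± 0.173 TPM and Uox at 0.0186 ± 0.0171 TPM. Among the Pex genes Pex11a was followed by Pex2 at 69.1 ± 3.29 TPM, Pex19 at 60.6 ± 0.451 TPM and Pex5 at 45.6 ± 0.987 TPM, and Pex5l and Pex14, at 4.66 ± 0.492 TPM, were lowest.

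Several members were uneven among the WT/Sed libraries and even among the Cdo1KKO/Sed libraries, and genes as a whole also varied more in WT/Sed. The coefficient of variation of CPM exceeded 20% in 5 of 42 tested members in WT/Sed (Ehhadh, Pex5l, Hacl1, Acaa1b and Nudt19) and in 0 in Cdo1KKO/Sed. Over all 17194 genes tested it exceeded 20% in 5270 in WT/Sed and 3370 in Cdo1KKO/Sed. Its median over members was 5.85% and 3.40%, against 11.0% and 6.89% over all genes tested. WT/Sed replicate 2 was the lowest of its group for Ehhadh, Acaa1b, Hsd17b4 and Pxmp4, and the highest for Nudt19, Amacr, Pipox, Dao and Pecr. It was lowest in 40.5% of members and highest in 40.5%, and in 39.7% and 38.8% of all genes tested. Cyp4a14 and Cyp4a10, PPARA targets outside the peroxisome picked after their values were seen, were lowest of their group in WT/Sed replicate 2. They do not stand for all 17 listed targets. Cyp4a14, a fatty acid hydroxylase, stood at 709, 32.4 and 1234 CPM in WT/Sed and 75.2, 45.1 and 93.9 CPM in Cdo1KKO/Sed. Cyp4a10, its relative, stood at 839.9, 317 and 1221 CPM against 305, 265 and 328 CPM. Neither was past the threshold (adjusted p = 0.154 and 0.118); both were called lower by DESeq2 and without WT/Sed replicate 2. The summed endothelial markers were 87.3, 145 and 36.8 CPM in WT/Sed and 147 to 153 CPM in Cdo1KKO/Sed, and the part of cell makeup in this unevenness was not tested.

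**Figure D3:**
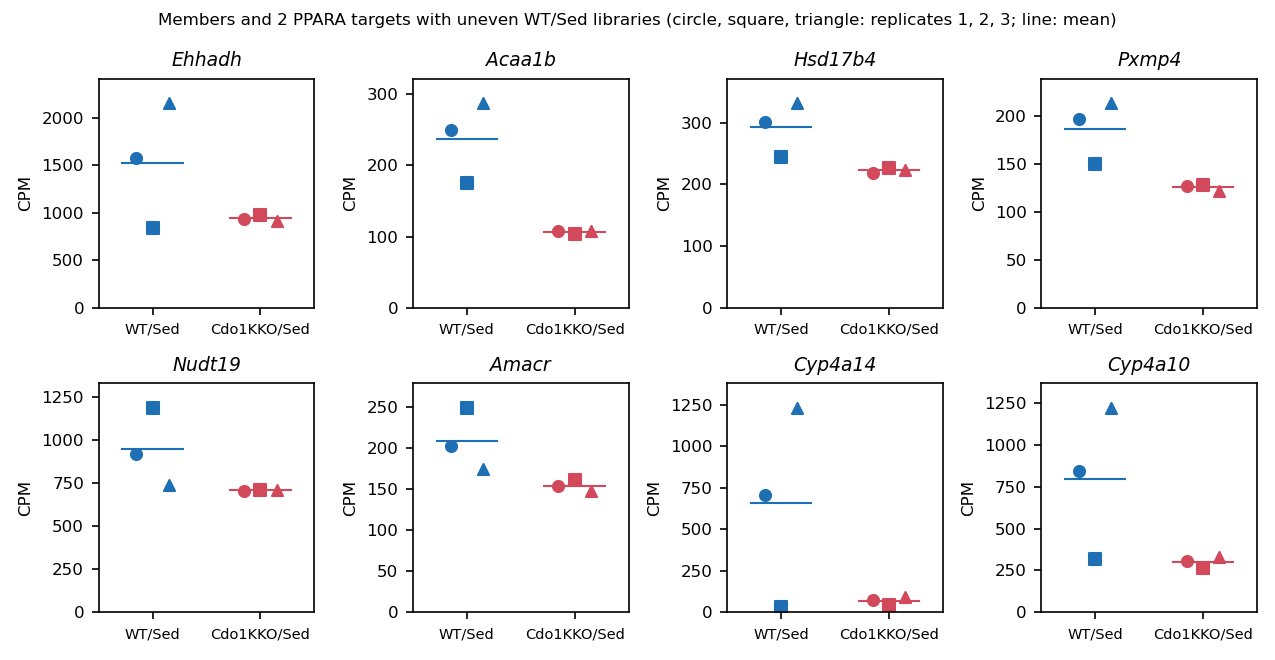
CPM in each library (circle, square and triangle, replicates 1, 2 and 3; line, group mean) for 6 members and the PPARA targets Cyp4a14 and Cyp4a10, WT/Sed in blue and Cdo1KKO/Sed in red, each axis from 0. The WT/Sed square is lowest for Ehhadh, Acaa1b, Hsd17b4, Pxmp4, Cyp4a14 and Cyp4a10 and highest for Nudt19 and Amacr. The red points sit close together on these axes, but those of Cyp4a14 are uneven relative to their mean.

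The bases before the start of the members, whether called lower or not, are described next. RefSeq windows (GRCm38.p6) were found for 33 of 43 members, 41 windows in all, and the 250 bases before each start were searched on both strands for the repeat bound by PPAR with RXR, which is 2 copies of AGGTCA with any 1 base between them, for a looser repeat of AGGNCA with the same spacing, which contains the strict one, and for a single AGGTCA, which also lies inside the strict repeat. Neither repeat was found in the 41 windows, and over all 32851 windows their shares were 0.0335% and 0.338%. The single element was found in 4 of 41 windows (9.76%), against 14.0% of all. The windows of Hao2 and Acaa1b are shown because these genes had the lowest fold changes, and both lie on the minus strand (chr3:98893231-98893480 and chr9:119157094-119157343), printed 5′ to 3′ in the direction of the gene.
Hao2: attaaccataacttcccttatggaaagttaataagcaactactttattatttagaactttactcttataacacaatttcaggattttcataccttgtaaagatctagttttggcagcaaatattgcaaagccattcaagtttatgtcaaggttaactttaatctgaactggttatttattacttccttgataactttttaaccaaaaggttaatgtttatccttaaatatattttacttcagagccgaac
Acaa1b: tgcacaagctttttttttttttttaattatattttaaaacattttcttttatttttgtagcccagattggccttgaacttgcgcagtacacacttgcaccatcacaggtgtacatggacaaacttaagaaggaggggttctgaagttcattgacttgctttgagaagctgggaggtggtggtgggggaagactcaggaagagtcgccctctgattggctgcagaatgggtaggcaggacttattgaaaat
The 4 windows with the single element are shown as 30 bases around it, with the element in capitals (TGACCT is AGGTCA on the other strand), at chr5:114003800-114003829 (+) for Dao, chr10:40629811-40629840 (+) for Ddo, chr8:3467804-3467833 (-) for Pex11g and chr4:108118639-108118668 (-) for Scp2.
Dao: tgccgaagacttTGACCTtgtgtttcattc
Ddo: ccagacaaagacAGGTCAtagaggacgaaa
Pex11g: aacaggcttagaAGGTCAttctgggtgtcc
Scp2: gtctaacacagtAGGTCAaaagaacccata
Counted from the start site, the first base of the element lies at -72 in Dao, -188 in Ddo, -173 in Pex11g and -109 in Scp2. These start sites are those of RefSeq. The stretch shown for Scp2 precedes an internal start and lies within the gene as the GENCODE annotation bounds it (chromosome 4, 108043839 to 108144998), as does that for Dao (gene from 114003703 on chromosome 5), while those for Ddo and Pex11g lie before the gene. Dao, Ddo and Scp2 fell and Pex11g was not called. A match is a description of these letters, and its absence says only that the letters are not in this window.

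Of 97 other genes with the gene ontology term for the peroxisome 90 were tested. Of these 34 fell and 13 rose, against 18.5% and 18.9% of all genes, with a median of -0.18 (0.05 on TPM). In a chosen list of 28 peroxisomal genes outside the 43, 26 were tested, and 15 fell and 0 rose (median -0.42, and -0.15 on TPM). The count that rose was also 0 at an unadjusted p under 0.05 in edgeR and by DESeq2, but 2 with library size only, 3 on TPM, and up to 2 when a library was left out. Slc27a2, which activates very long fatty acids, stood at 6166, 6138 and 6233 CPM against 3263, 3467 and 3164 CPM (-0.91 ± 0.05 SE, adjusted p = 1.21e-07). Acox3 (-0.89 ± 0.07) and Acox2 (-0.71 ± 0.05), oxidases of branched chains and bile acid intermediates, and Ech1 (-0.79 ± 0.08), an isomerase of double bonds, also fell, with adjusted p = 2.81e-06, 2.37e-06 and 3.55e-05. Of 3 tested genes of organelle division, Fis1 fell (-0.34 ± 0.05, adjusted p = 0.000233, and -0.09 on TPM), and Mff (-0.14) and Dnm1l (-0.02, and 0.23 on TPM) were not called (adjusted p = 0.135 and 0.84).

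Among 10 tested nuclear receptors and coactivators that act on peroxisomal genes, 3 fell and 2 rose, against 18.5% and 18.9% of all genes, and the list's median was -0.06 (0.20 on TPM). Hnf4a, a receptor that maintains the proximal tubule programme, stood at 841, 768 and 874 CPM against 504, 472 and 495 CPM (-0.76 ± 0.06 SE, adjusted p = 2.83e-06). Esrra (-0.57 ± 0.07, adjusted p = 0.000106), a receptor for mitochondrial and oxidative genes, also fell, as did Rxra (-0.27 ± 0.08, adjusted p = 0.0266), the partner of PPARA. Leaving out WT/Sed replicate 1 (adjusted p = 0.0788) or Cdo1KKO/Sed replicate 1 or 3 (adjusted p = 0.114 and 0.108) ended the Rxra call. It was also not called with library size only (-0.10, adjusted p = 0.324), on TPM (-0.02, adjusted p = 0.899) or on TPM centred on the median gene (-0.21, adjusted p = 0.105). Ppard rose, from 14.6, 17.4 and 12.5 CPM to 34.4, 36.5 and 33.3 CPM (1.24, adjusted p = 8.69e-06), and so did the coactivator Ppargc1b (0.84, adjusted p = 0.00154). Ppara stood at 35.4, 24.3 and 42.5 CPM against 34.3, 31.6 and 34.4 CPM and overlapped (-0.03, adjusted p = 0.907). Without WT/Sed replicate 2, its lowest library, Ppara was called lower (-0.22, adjusted p = 0.0322), and without WT/Sed replicate 3, its highest, its log2 fold change was 0.15 (adjusted p = 0.441).

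Of 17 PPARA targets outside the peroxisome 6 fell, 2 rose and 9 were not called (median -0.67, and -0.39 on TPM). Of all genes tested 18.5% fell and 18.9% rose. Slc22a5, the carnitine transporter, stood at 354, 317 and 389 CPM against 177, 185 and 179 CPM (-0.97 ± 0.07 SE, adjusted p = 1.83e-06), and Angptl4, an inhibitor of lipoprotein lipase, fell by 0.75 on the log2 scale (adjusted p = 0.000673). The 2 listed targets that rose are not oxidation enzymes. Plin2, which coats lipid droplets, stood at 80.2, 74.6 and 88.5 CPM against 929, 787 and 987 CPM (3.47 ± 0.10, adjusted p = 1.96e-08). Fgf21, a secreted hormone, had 0 counts in WT/Sed and 54 in Cdo1KKO/Sed, at least 16.0-fold higher than the 3 counts over the group that a count of 0 allows.

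Markers of kidney cells differed between the groups in some lists and not in others. Of all genes tested 18.5% fell and 18.9% rose, so 1 call in a list of 4 markers says little. Of 11 markers of the proximal tubule, where peroxisomes are abundant, 10 fell (median -0.64, and -0.38 on TPM), and their sum was 9934 to 10771 CPM in WT/Sed and 6151 to 6750 CPM in Cdo1KKO/Sed, 61.7%. Of the members 7 of 42 lay below that median (Acaa1b, Dao, Dhrs4, Ehhadh, Hacl1, Hao2 and Pxmp2). Of 4 thick ascending limb markers 3 rose and 1 fell, with sums of 2204 to 3000 CPM and 3856 to 4100 CPM, and of 3 distal convoluted tubule markers 2 rose (915 to 1146 CPM and 1400.1 to 1418 CPM). Of 4 principal cell markers 2 fell, Aqp2 (-1.45) and Aqp3 (-1.08), with sums of 513 to 518 CPM and 259.9 to 269.8 CPM, 51.3%. Of 4 intercalated cell markers 1 rose, Slc4a1 (0.98), with sums of 153 to 162 CPM and 183 to 188 CPM. Of 4 podocyte markers 1 fell, Wt1 (-0.79), with sums of 176 to 347 CPM and 213 to 235 CPM. All 5 red blood cell markers rose (26.7 to 54.2 CPM and 409.7 to 433 CPM), and so did all 4 fibroblast markers (19.4 to 26.2 CPM and 49.9 to 57.1 CPM) and all 3 tested of 4 neutrophil markers (1.5 to 2.54 CPM and 12.6 to 16.1 CPM), with Ly6g at 0 to 0.0514 CPM. Of 4 macrophage markers 2 rose, Cd68 (3.16) and Adgre1 (2.09), and 1 fell, Csf1r (-0.33), with a median of 1.36; their sum, carried in WT/Sed mostly by Csf1r, was 45.2 to 63.3 CPM and 59.4 to 61.5 CPM. Of the adipocyte markers the 1 tested, Cidec, rose (3.15), with Lep at 0 in all libraries. The 4 endothelial markers had a median of 0.65 and were not called (adjusted p = 0.251 to 0.416). Of 3 liver markers tested 1 fell, Ttr (-1.01), and the sum of the list, mostly Ttr, was 122 to 137 CPM and 64.0 to 68.8 CPM, 51.8%; Alb was at 5.53 to 7.69 CPM and Cps1 at 0 to 0.0486 CPM. The part of cell makeup in the lower levels of the members was not tested.

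**Figure D4:**
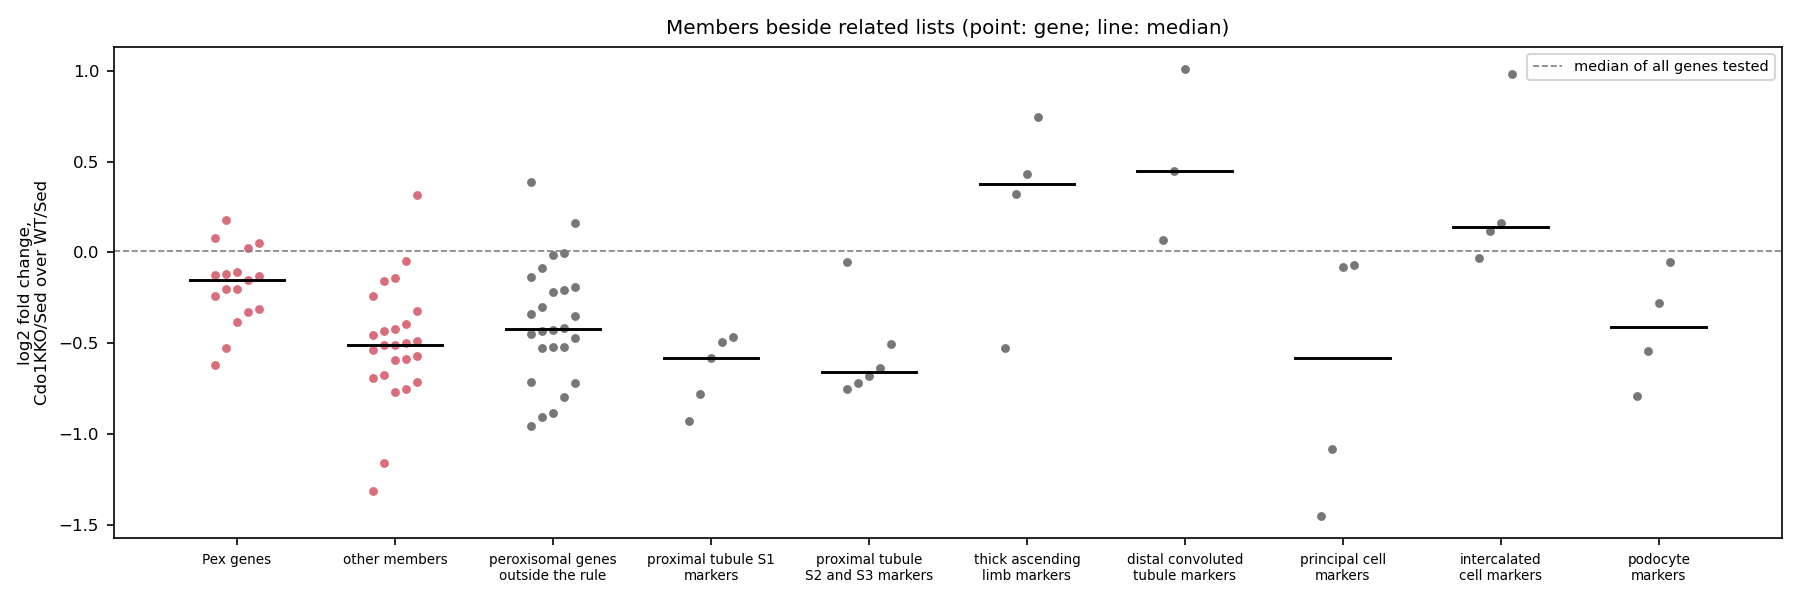
Each point is the log2 fold change of 1 gene, Cdo1KKO/Sed over WT/Sed (counts with TMM), and each black line a list's median; the dashed line is the median of all genes tested, 0.01. The medians are -0.15 for the Pex genes (above 0 on TPM), -0.51 for the other members, -0.42 for further peroxisomal genes, -0.58 and -0.66 for the proximal tubule lists, and -0.58 for principal cells and -0.41 for podocytes (4 genes each), while thick ascending limb, distal convoluted tubule and intercalated cell markers lie at 0.37, 0.45 and 0.14.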

How the data were processed

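Poly(A) RNA of 6 diabetic mouse kidneys, 3 in each group, was sequenced. Per the submitters' processing notes, fastp 0.23.4 and the builds GRCm38 and mm10 were used. Aligner, counter, annotation and strand setting: not given in the sources used here. Per the file headers, the authors deposited whole-number counts per gene, and TPM for the same genes, which are per gene length.

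Counts were fitted in edgeR 4.0.16 (R 4.3.3): filterByExpr (17194 genes kept), TMM scaling, the robust form of the quasi-likelihood test on genotype alone, and Benjamini-Hochberg adjustment over all genes tested, with a threshold of 0.05. SE is the log2 fold change over the square root of F. Totals of 28145261 to 43872779 counts set the precision. Without molecular identifiers, limits cover counting error only. Libraries within a group differed by more than sampling noise, and p-values measure the spread between these mice. All deposited value columns were used. TPM was tested with limma 3.58.1 as an alternative, as was DESeq2 1.42.0 on counts. The procedure was tested on simulated data.

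Gene positions are from GENCODE M21 (GRCm38) and promoters from RefSeq. All members were eligible to be named, and of the related lists the 4 with the smallest p or all of a count of up to 5. Ppara, Ppargc1a, Cyp4a14, Cyp4a10 and the marker genes named were chosen after their values were seen. The members and lists were chosen with earlier results of these data known. Targeting signals of the proteins were not analysed here. Some members are counted but not reported here by name.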

Additional observations from a re-analysis of the deposited data

How the results depend on the processing

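Library scaling moved the counts most. With library size only, 2 members rose and 18 fell (median log2 fold change -0.22), and over all genes 5513 rose and 1685 fell. With log2(TPM + 1), log2(TPM + 0.1) and log2(TPM + 1) over all genes above 0, members that rose numbered 4, 4 and 3, members that fell 15, 15 and 13, and the members' median was -0.13, -0.13 and -0.12. All genes that rose then numbered 6784, 6660 and 5469, and those that fell 1246, 1224 and 1010. With TPM centred on the median gene, an alternative chosen after seeing the data, 22 members fell and the median was -0.32.

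On the 3 uncentred TPM scales some log2 fold changes took the other sign: 0.0132, 0.0133 and 0.0132 for Idh1, 0.0519, 0.0529 and 0.0519 for Pex5, 0.0491, 0.0506 and 0.0491 for Pex13, 0.10 each for Gnpat (0.0129 with library size only) and 0.20, 0.21 and 0.20 for Far1. Dnm1l was at 0.23 and Ppargc1a at 0.16 with log2(TPM + 1) and log2(TPM + 0.1). All of these but Far1 and Dnm1l lay below the median of all genes with log2(TPM + 1), 0.19.

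Leaving out 1 library at a time gave 23 to 30 members that fell, 0 that rose, a median of -0.41 to -0.30, 2306 to 3767 genes that rose and 2331 to 3553 that fell, and -0.80 to -0.70 for Cdo1. Of the 28 members that fell, 21 kept the call in all 6 of these fits (among those lost at least once: Amacr, Gnpat, Hacl1, Hsd17b4, Pex13 and Pex5), and 13 kept it under all 18 alternatives: Acaa1a, Acaa1b, Agps, Dao, Dhrs4, Hao2, Mlycd, Nudt12, Pecr, Pex6, Pipox, Pxmp2 and Scp2. DESeq2 gave 27 members that fell. Replicate numbers do not pair the mice: the correlations of same-numbered deviations were -0.00218, 0.0105 and 0.0125, and not every library correlated best with its own number. With the replicate number as a block, 27 members fell (Hacl1 and Gnpat were lost and Phyh gained), and 3117 genes rose and 3029 fell overall. Depth limits Uox (4 and 12 counts in the groups), Hacl1 and Pex5l. The cause of these changes was not tested.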

Other observations

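Beyond the members, 97 other protein-coding genes carry the gene ontology term for the peroxisome, a wider set that holds genes with other main locations. Of the 90 tested, 34 fell and 13 rose, against 18.5% and 18.9% of all genes tested. The median log2 fold change of the 90 was -0.18 (0.05 on TPM), with a range of -2.58 to 4.67. Over all genes tested the median was 0.01 (0.19 on TPM). The summed level of the 97 in Cdo1KKO/Sed was 75.7% of that in WT/Sed, against 71.3% for the members and 89.0% for all genes tested. The 89.0% is set by the library scaling. The list shares the catalogue of the term with the members, and the differences between these sums were not tested.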
